A study of Mus musculus with 8 samples.

Results

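The cytosolic ribosomal protein genes were examined in mouse bone marrow cells sorted as long-term haematopoietic stem cells (LT-HSCs). They were taken by name, as every gene symbol of the large-subunit (Rpl, Rplp) or small-subunit (Rps, Rpsa) series with a total of at least 10 counts over the 8 libraries. Of 24421 symbols, 81 fitted the name rule and 79 also reached the count minimum, 47 of the large and 32 of the small subunit. All 79 passed the later filter on low counts and were tested, among 15917 genes. The symbols left out were Rpl26, at 0 in every library, and Rpl10l, with 8 counts in all. RNA was sequenced from Lineage-negative, CD117+ Sca1+ cells with high CD150 and low CD48, sorted by a Vwf-GFP reporter that the cells of all groups carried. Mice were 10 to 12 months old. The 4 groups were Vwf+ WT, Vwf+ Dnmt3a+/-, Vwf- WT and Vwf- Dnmt3a+/- cells, where WT is wild type and Dnmt3a+/- is labelled heterozygous. Each group had 1 male and 1 female library, so that sex and replicate number are the same split. For each replicate 3 to 4 mice were pooled. Whether the Vwf+ and Vwf- libraries of 1 genotype and sex came from the same mice is not given in the sources used here. Neither the deleted part of Dnmt3a nor whether the allele was conditional is given in the sources used here.

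Total counts ran from 21809278 to 39402418 per library. Vwf, von Willebrand factor, stood at 1034 to 1409 CPM (the usual counts per unit of library size, here after TMM scaling) in the Vwf+ libraries and at 98.9 to 116 CPM in the Vwf- libraries, so the sort labels and the counts went together. Dnmt3a, a de novo DNA methyltransferase, stood at 175 to 251 CPM where the label is WT and at 179 to 361 CPM where it is Dnmt3a+/-. The count over the whole gene was thus not lower in those libraries, and it does not check which allele they carry. The 14 LT-HSC markers, among them Procr, Slamf1, Hlf and Mecom, were all detected and summed to 3141 to 3946 CPM per library. Markers of B and plasma cells summed to 17.5 to 37.9 CPM those of T and NK cells to 10.2 to 19.2 CPM, the myeloid list to 240 to 484 CPM and the erythroid list to 462 to 689 CPM, most of it Car2. Of the 13 erythroid markers 4 were at 0 in every library.

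A ribosome is built from a small subunit, which reads the mRNA, and a large subunit, which joins amino acids. Their proteins are made in the cytoplasm, imported into the nucleolus and assembled on ribosomal RNA by a large set of biogenesis factors. Most ribosomal protein mRNAs start with a C followed by a run of pyrimidines, the terminal oligopyrimidine (TOP) tract, through which mTORC1 and the RNA-binding protein Larp1 set how much of each mRNA is translated. Blood formation is known to be sensitive to the dose of these proteins: loss of 1 copy of genes such as RPS19, RPL5 or RPL11 underlies Diamond-Blackfan anaemia, and loss of RPS14 contributes to the anaemia of the 5q- syndrome. Haematopoietic stem cells are known for a low rate of protein synthesis.

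The stretches around the start sites are shown for 6 of the genes named below, to put the letters at their starts beside the levels of their mRNAs. Each stretch runs from 50 bases before to 20 bases from the start listed by RefSeq on GRCm38.p6. Capitals mark the longest run that opens with C and holds only C and T, for at least 5 bases, from 30 before to 20 after the listed start. Rps15 (chr10:80292381-80292450, plus strand), Rpl11 (chr4:136053374-136053443, minus strand) and Rpl13 (chr8:123102300-123102369, plus strand) were among the genes of smallest p between Vwf+ and Vwf- cells, where 0 of 79 passed. Rps2 (chr17:24720013-24720082, plus strand), Rps25 (chr9:44407664-44407733, plus strand) and Rps27 (chr3:90213629-90213698, minus strand) passed the test between female and male libraries. Rpl34 also passed it, and its stretches are not shown.
Rps15: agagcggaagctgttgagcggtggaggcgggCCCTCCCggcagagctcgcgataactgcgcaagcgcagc
Rpl11: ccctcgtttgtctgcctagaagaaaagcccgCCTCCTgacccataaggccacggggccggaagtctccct
Rpl13: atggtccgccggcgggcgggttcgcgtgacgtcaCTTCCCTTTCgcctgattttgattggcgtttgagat
Rps2: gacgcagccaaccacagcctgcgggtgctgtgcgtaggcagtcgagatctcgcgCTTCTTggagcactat
Rps25: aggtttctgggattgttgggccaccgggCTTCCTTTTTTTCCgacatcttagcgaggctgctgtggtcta
Rps27: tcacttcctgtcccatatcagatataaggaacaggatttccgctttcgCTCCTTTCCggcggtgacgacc

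In Rps27 the run starts 2 bases before the listed start and in Rps2 it starts at position 4 after it, while in Rps25 a run of 14 bases lies 22 bases before it. In Rps15 and Rpl11 the run starts 19 bases before the listed start, and in Rpl13 16 bases before it. Of the 79 genes, 58 had a RefSeq window of 300 bases, from 250 before to 50 after a start, and some had several, which made 70 windows. A C followed by at least 4 pyrimidines sat exactly at the listed start in 13 of the 70 windows (18.6%), against 2.5% of all 32851 windows. Within 5 bases of the start the shares were 42.9% and 18.3%. A run of at least 10 bases within the span used for the capitals was in 30% of the windows of these genes and in 7.5% of all. Searched on both strands, the ETS-factor core CCGGAAG was in 35.7% of the windows of these genes and in 8.9% of all. The YY1-type ATGGCGG was in 18.6% and 4.1%, and the SP-type GGGCGG in 58.6% and 35.7%. TATAAA was in 8.6% and 13.6%, and CCAAT in 31.4% and 37.4%. The median number of CpG pairs in a window was 21 for these genes and 7 over all windows. Windows of 1 gene overlap, and a match describes the letters only.

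The 79 genes together took 22.4% and 22.1% of all TPM (a share of transcripts that divides counts by gene length) in the male and the female Vwf+ WT library. In the Vwf+ Dnmt3a+/- libraries they took 22.1% and 19.3%, in the Vwf- WT libraries 20.6% and 18.4%, and in the Vwf- Dnmt3a+/- libraries 19.6% and 18.9%. As group means these were 22.3% ± 0.222, 20.7% ± 2.01, 19.5% ± 1.55 and 19.2% ± 0.559 (SD, n = 2 each). The Vwf+ WT pair was above every Vwf- library, whereas the female Vwf+ Dnmt3a+/- library lay inside the range of the Vwf- libraries. The most abundant, on the TPM scale averaged over the 8 libraries, was Rps23, of the decoding centre, at 7370 TPM. It was followed by the acidic stalk protein gene Rplp1 at 7043 TPM, Rpl23a, at the tunnel exit, at 5516 TPM, the second acidic stalk gene Rplp2 at 5404 TPM, and Rps18 at 5287 TPM. The median gene stood at 2473 TPM. The 72 genes with a mean of at least 50 CPM all lay above 100 TPM, and Rps15a was low among them at 200 TPM. The length by which its counts were divided was 7.25 times that of the median ribosomal protein gene.

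**Figure D1:**
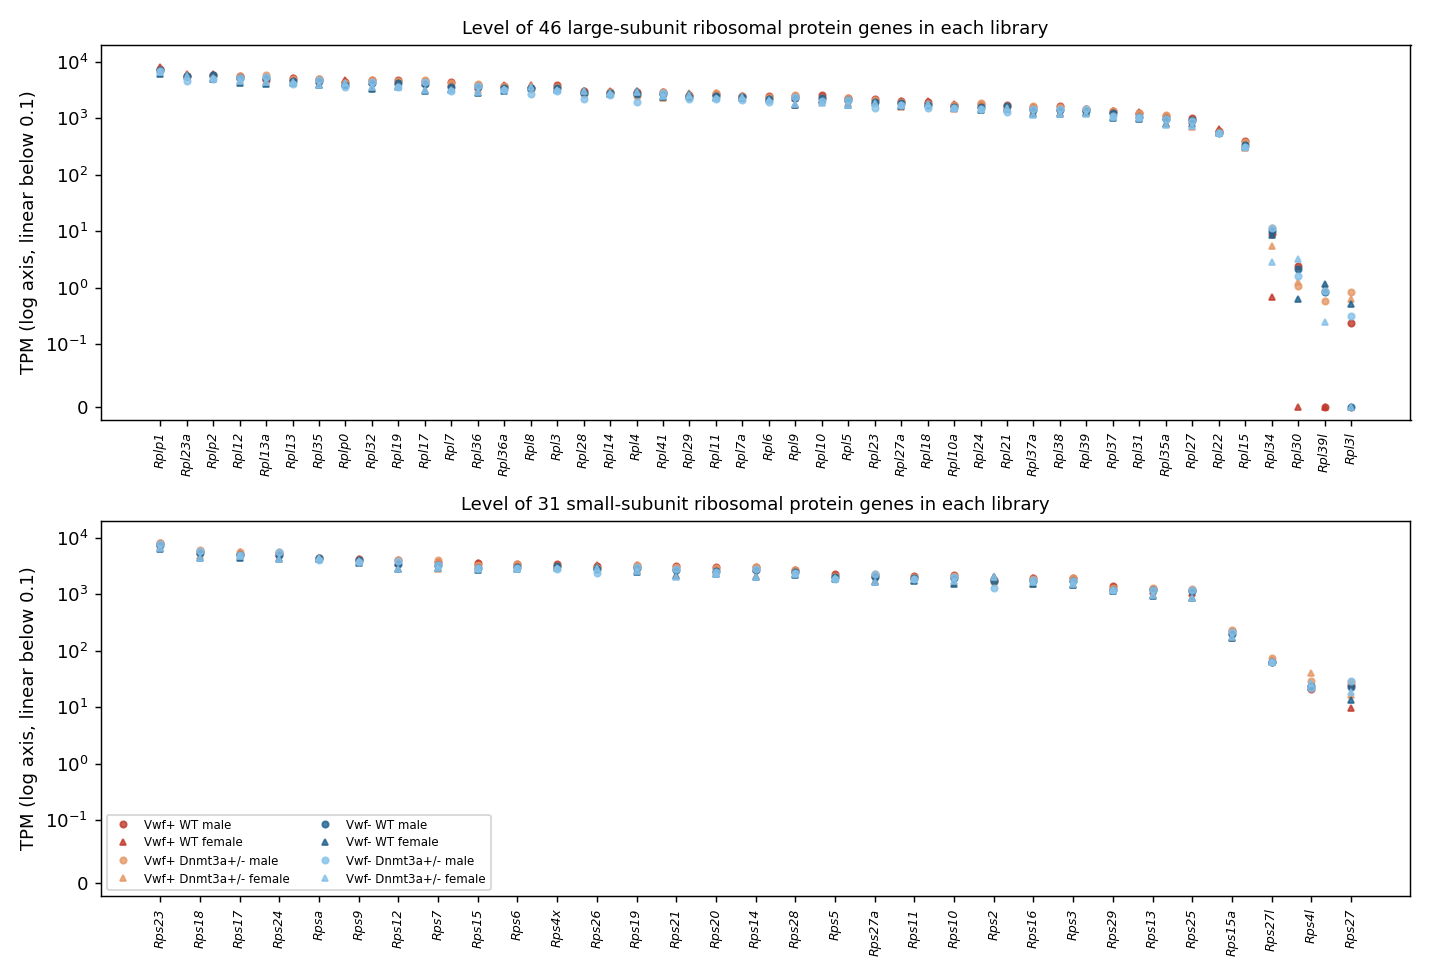
TPM of 77 of the 79 genes (horizontal axis, ordered by mean TPM within the large and the small subunit) in each of the 8 libraries, on a vertical axis that is logarithmic above 0.1 TPM and linear below. Circles are male and triangles female libraries. All but 7 of the genes shown lie above 100 TPM in close stacks, and Rpl34, Rpl30, Rpl39l and Rpl3l form the low tail of the large subunit, the last 3 of them with points at 0.

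Of the 7 genes under 100 TPM, 3 are paralogues of abundant ones and Rps27l is the paralogue of a gene that is itself low here. Rpl3l, known from skeletal muscle and heart, had 53 counts in all and 0.317 TPM, against 3344 TPM for Rpl3. Rpl39l, known from male germ cells, had 55 counts and 0.586 TPM, against 1363 TPM for Rpl39. Rps4l stood at 26.6 TPM, against 3053 TPM for Rps4x, and Rps27l at 65.7 TPM, against 20.7 TPM for Rps27. Rps27, Rpl34 (7.40 TPM) and Rpl30 (1.54 TPM) are named for core ribosomal proteins. In the annotation, 63.1% of the 50-base stretches of the Rps27 transcript also occur in Rps27rt, 29.7% of those of Rpl30 in Gm12191, and 6.9% of those of Rpl34 in Rpl34-ps1. Rpl26, the gene left out at 0, shares 45.7% with Gm15772. All these partners were at 0 counts in every library. How reads that map to several places were counted is not given in the sources used here, so the levels of these genes are uncertain. Shared sequence is common in the family: the median share of stretches that occur elsewhere in annotated transcripts was 40.2% over 78 genes, and the highest was 86.7%, in Rps18. It was 71.3% in Rps2, and 15 genes had more. The same doubt therefore holds, to that degree, for the counts of the abundant genes. No protein-level measure exists in these data. Of the cytosolic ribosomal protein genes whose names fall outside the rule, Rps3a1 stood at 5176 TPM, Gnb2l1 (Rack1) at 2413 TPM and Fau at 1401 TPM.

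The genes moved together from library to library. Over the 72 genes with a mean of at least 50 CPM, the median Pearson r between 2 genes across the 8 libraries was 0.84, and 84.5% of pairs exceeded 0.5. Over all 4550 tested genes of that level the median was 0.09, and 25.4% of pairs exceeded 0.5. These values describe 8 shared libraries and carry no test. In log2 CPM relative to each gene's own mean, the median of the 72 genes was 0.13 in the male and 0.33 in the female Vwf+ WT library. It was 0.09 and -0.15 in the Vwf+ Dnmt3a+/- libraries, 0.03 and -0.25 in the Vwf- WT libraries, and -0.09 and -0.12 in the Vwf- Dnmt3a+/- libraries. In the female Vwf+ WT library all 72 genes were above their own mean, and in the female Vwf- WT library 3 of 72 were. These 2 libraries mark the ends of the range, and the pooled SD of the library medians within a group was 0.149. The median of the 4550 tested genes with a mean of at least 50 CPM differed between libraries too. It ran from -0.09 in the male Vwf- Dnmt3a+/- library to 0.08 in the female Vwf- WT library.

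**Figure D2:**
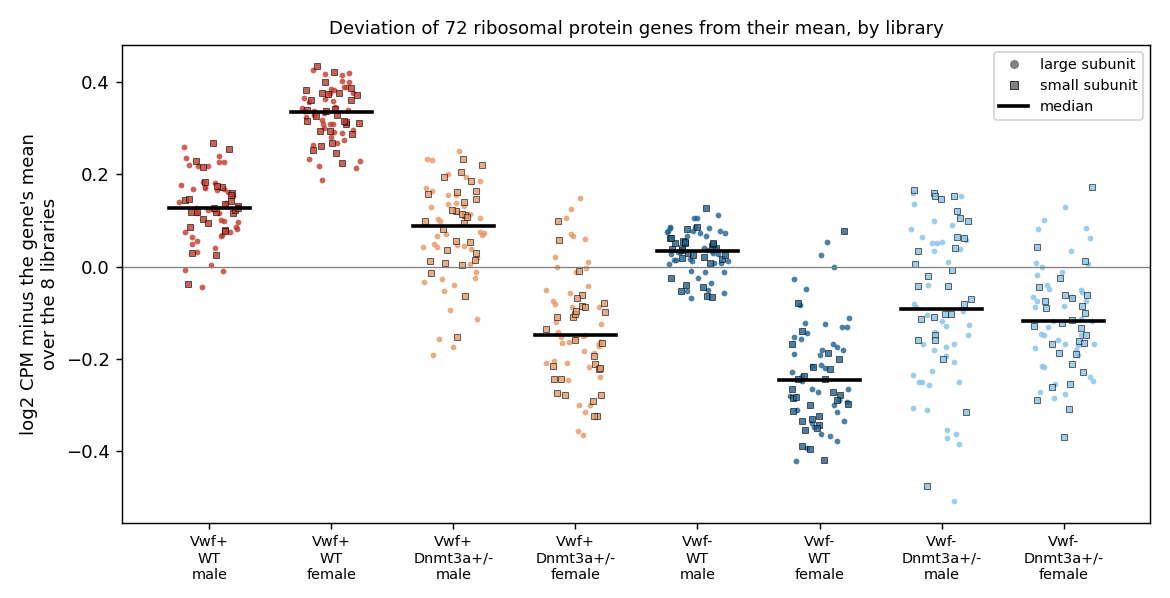
Each point is 1 of 72 ribosomal protein genes, plotted for each library (horizontal axis) as log2 CPM minus the gene's mean over the 8 libraries (vertical axis), with circles for the large and squares for the small subunit and a bar at the median. The female Vwf+ WT library lies wholly above 0, with a median of 0.33, and the female Vwf- WT library lies almost wholly below it, with a median of -0.25.

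The steadiest of the 72 genes were Rpsa, the laminin-receptor homologue of the small subunit, and Rpl29 and Rps4x, with SDs of log2 CPM over the 8 libraries of 0.13, 0.14 and 0.14. Those that varied most were Rps21, Rps14 and Rpl17, with 0.31, 0.30 and 0.30. Rps14, a protein of the small-subunit platform, had CPM values, male before female, of 840 and 931 for Vwf+ WT cells and 827 and 573 for Vwf+ cells of Dnmt3a+/- mice. For Vwf- cells the values were 759 and 536 (WT) and 801 and 579 (Dnmt3a+/-). In 3 of 4 groups the female library was thus the low one, and the Vwf+ WT pair was the exception. Among the genes least like the others were Rps2, Rpl4, Rpl29, Rpl28 and Rpl8, whose median r with the remaining genes ran from 0.29 for Rps2 to 0.56 for Rpl8.

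Between Vwf+ and Vwf- cells, averaged over genotype, 75 of the 79 genes had a higher estimate in Vwf+ cells, with a median log2 change of 0.20 (1.14-fold) against -0.01 over all tested genes. Single genes did not pass: 0 of 79 reached an adjusted p of 0.05 in edgeR's quasi-likelihood test, while 5.44% of all tested genes did. At an unadjusted p under 0.05 there were 2 in edgeR, against 17.2% of all genes: Rpl7 and, with a negative estimate on 55 counts, Rpl39l. DESeq2 had 7, and called 0 of these genes and 8.6% of all. With replicate number as a block edgeR had 19 at an unadjusted p under 0.05. The share of all genes at that cut with the block is not given here. The changes were narrow: over the 72 abundant genes they ran from 0.10 to 0.34, with an SD of 0.048 between genes, and the large and small subunits had medians of 0.19 and 0.20.

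Rpl7, an RNA-binding protein of the large subunit, had the smallest p. Its CPM, male before female, was 1910 and 2107 for Vwf+ WT cells and 1814 and 1426 for Vwf+ cells of Dnmt3a+/- mice. The Vwf- values were 1613 and 1328 (WT) and 1341 and 1407 (Dnmt3a+/-). Of the Vwf+ libraries 3 lay above all Vwf- libraries, and the female Vwf+ Dnmt3a+/- library lay among them. The log2 change was 0.34 ± 0.15 (SE, adjusted p = 0.27, or 0.053 with replicate number as a block, under which 13.4% of all genes and 0 of the 79 passed). Rps15, which binds the small-subunit head, had CPM values in the same order of 870, 1027, 795 and 716 in the Vwf+ libraries and of 739, 632, 713 and 701 in the Vwf- libraries. Its lowest Vwf+ value thus fell just inside the Vwf- range. Rps15, Rpl11 and Rpl13 each had an estimate of 0.28, with SEs of 0.13, 0.14 and 0.14 and adjusted p of 0.30, 0.34 and 0.36. Rps29, the zinc-binding protein of the small-subunit head, had 0.21 ± 0.11 (SE, adjusted p = 0.36).

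Genes tied to inherited anaemia lay within the same range. Rpl5 and Rpl11, which enter the large subunit together with 5S RNA and bind Mdm2 when assembly stalls, had log2 changes of 0.23 ± 0.16 and 0.28 ± 0.14 (SE). Rps19 had, again WT before Dnmt3a+/- and male before female, 922, 1133, 946 and 780 CPM among Vwf+ libraries and 899, 704, 899 and 777 CPM among Vwf- libraries. Its change of 0.20 ± 0.15 (SE, adjusted p = 0.59) lay at the median of the family. The stalk genes Rplp0, Rplp1 and Rplp2, whose products recruit elongation factors, had 0.22, 0.21 and 0.15. The 4 genes with a negative estimate were Rpl39l, Rpl30, Rpl34 and Rps27, all of low count. For Rpl39l the 2 Vwf+ WT libraries held 0 counts, so its fitted change has no stable size, and its other libraries held at most 0.42 CPM.

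In WT cells alone the median log2 change from Vwf- to Vwf+ was 0.32 (1.25-fold), against 0.00 over all genes, and in Dnmt3a+/- cells it was 0.08, against -0.02. In each of these contrasts 0 of 79 genes passed, against 1.97% and 1.06% of all tested genes. At an unadjusted p under 0.05 there were 6 genes in WT cells and 0 in Dnmt3a+/- cells in edgeR, against 12.4% and 9.02% of all genes. Of the 6, Rpl39l had a negative estimate. There were 15 and 0 in DESeq2, which called 0 of 76 and 0 of 77 genes with an adjusted p (5.22% and 3.31% of all genes). With replicate number as a block, edgeR had 46 genes in WT cells and 0 in Dnmt3a+/- cells at an unadjusted p under 0.05. The share of all genes at that cut with the block is not given here. Under that block Rps21 passed in WT cells, against 8.35% of all tested genes. Its log2 change in WT cells was 0.51 ± 0.24 (SE of the fit without the block, adjusted p = 0.042 with it and 0.43 without). Its male and female levels there were 588 and 660 CPM with Vwf-GFP, and 506 and 371 CPM without.

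The 4 male-to-male and female-to-female pairs of libraries were unequal. The median over the 72 genes was 0.10 higher on the log2 scale in the male Vwf+ than in the male Vwf- WT library, with 67 genes higher, and 0.58 higher between the female WT libraries, with 72 higher. It was 0.16 higher between the male Dnmt3a+/- libraries, with 70 higher, and -0.01 between the female ones, with 27 higher. The WT median therefore came mostly from the female pair: it was 0.19 without the female Vwf- WT library and 0.48 without the male one. In Dnmt3a+/- cells the median turned to -0.04 without the male and was 0.18 without the female Vwf+ library. Other markers differed along the same sort, averaged over genotype, where 5.44% of all tested genes passed. The summed LT-HSC list was at 3526 to 3946 CPM in Vwf+ and 3141 to 3486 CPM in Vwf- libraries, with 5 of 14 markers higher and 0 lower. The multipotent and lymphoid progenitor list, with Flt3 and Cd34, was at 280 to 307 and 438 to 510 CPM, with 4 of 9 lower. The megakaryocyte and platelet list was at 1253 to 1501 and 863 to 932 CPM, with 3 of 11 higher. Endothelial markers were at 578 to 704 and 437 to 517 CPM, with 4 of 12 higher, and myeloid markers at 378 to 484 and 240 to 314 CPM, with 2 of 14 higher. Their part in the levels of ribosomal protein genes was not tested, and in bulk RNA a change in cell makeup and a change per cell cannot be told apart.

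Between the libraries labelled Dnmt3a+/- and WT, averaged over Vwf status, 73 of 79 genes had a lower estimate, with a median log2 change of -0.12 against 0.01 over all genes. Again 0 of 79 passed in edgeR, as did 0 of all 15917 genes (0%), with 0 of the 79 at an unadjusted p under 0.05, against 3.24% of all. DESeq2 also called 0 of the 79 (0.0857% of all genes). Within Vwf+ cells the median was -0.25 (0.843-fold), with 74 lower estimates, and within Vwf- cells it was 0.02, with 43 higher and 36 lower. In both, 0 of 79 passed, as did 0% of all genes, and at an unadjusted p under 0.05 there were 1 and 0 genes in edgeR, against 2.28% and 1.33% of all genes. The 1 was Rpl39l, with a higher estimate against 0 counts in both Vwf+ WT libraries. There were 1 and 0 in DESeq2, which called 0 of the 79 in both (0.0132% and 0.00877% of all). With replicate number as a block edgeR had 11 in Vwf+ and 0 in Vwf- cells at an unadjusted p under 0.05, and 0 passed in both. For that fit the share of all genes at this cut is not given here, and the 2.28% and 1.33% belong to the fit without the block. The smallest p among lower estimates in Vwf+ cells was that of Rpl27, whose levels were 347 and 366 CPM for WT, and 314 and 239 CPM for Dnmt3a+/-, a log2 change of -0.37 ± 0.19 (SE, adjusted p = 1.0). Its pairs did not overlap, but the spread between the Dnmt3a+/- pair exceeded the gap. Rps16 had -0.36 ± 0.19 and Rps15 -0.33 ± 0.18 (SE). The female pair carried the difference here as well: the median was -0.06 between the male Vwf+ libraries, with 18 of 72 genes higher in Dnmt3a+/-, and -0.47 between the female ones, with 0 higher. In Vwf- cells it was -0.08 between males, with 21 higher, and 0.12 between females, with 70 higher. The average was -0.05 without the male and -0.19 without the female Vwf- WT library, and -0.07 without the female library of either Vwf+ group. Within Vwf+ cells the median was -0.14 without the female Dnmt3a+/- and -0.15 without the female WT library. Within Vwf- cells it was 0.14 without the male WT library, and turned to -0.12 without the female WT and to -0.03 without the male Dnmt3a+/- library. Markers of other cells moved in places: the 14 myeloid markers had a median genotype change of 0.72, with 12 positive and 0 passing, and summed to 378 to 484 CPM in Vwf+ Dnmt3a+/-, 418 to 448 CPM in Vwf+ WT, 305 to 314 CPM in Vwf- Dnmt3a+/- and 240 to 310 CPM in Vwf- WT libraries. The 9 tested erythroid markers had a median of 0.45, with 5 positive and 0 passing. They summed to 545 to 587, 617 to 689, 462 to 625 and 593 to 621 CPM in the same order. Their part in the levels was not tested.

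The interaction, which asks whether the Vwf difference itself differed between genotypes, had a median log2 value of -0.26 against 0.00 over all genes, with 75 of 79 negative. It passed in 0 of 79 genes, as in 0% of all genes, with 1 at an unadjusted p under 0.05 in edgeR, against 0.999% of all. That was again Rpl39l, with a positive value that rests on libraries at 0 counts. DESeq2 had 1 and called 0. With replicate number as a block edgeR had 3 and called 0. The 0.999% belongs to the fit without the block, and the share with it is not given here. The lowest p among negative values belonged to Rps10, Rps16 and Rps15, with -0.48 ± 0.29, -0.44 ± 0.27 and -0.37 ± 0.26 (SE). Rps10, of the small-subunit beak, had 586, 680, 555 and 446 CPM among Vwf+ libraries (WT male and female, then Dnmt3a+/- male and female). Among Vwf- libraries it had 526, 397, 543 and 478 CPM in that order. These comparisons share libraries with the Vwf contrasts, so their values are given side by side and not as separate evidence. On the TPM scale the median of all genes itself shifted by -0.11 in the WT Vwf contrast, 0.12 in the Vwf+ genotype contrast and 0.15 in the interaction, where the median of the 79 genes was -0.11. Leaving out 1 library moved the interaction median to -0.13 (female Vwf- WT), -0.15 (the female library of either Vwf+ group) or -0.40 (male Vwf- WT).

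Between female and male libraries, with the 4 groups held apart, single genes did pass, in both directions. The median log2 change was -0.10, against -0.02 over all genes, and 58 of 79 estimates were lower in females. Of the 79 genes, 4 passed: Rps2 was higher in females, and Rps27, Rpl34 and Rps25 were lower. Over all tested genes 10.5% passed, 5.62% higher and 4.92% lower. DESeq2 called 13 of the 76 to which it gave an adjusted p, and 15.1% of all genes. Groups did not overlap in 4 genes, Rps2 and Rpl29 higher and Rps27 and Rpl34 lower, where over all tested genes 5.35% were wholly higher and 5.91% wholly lower. Sex and replicate number are the same split here, so any other difference between the first and the second pools cannot be told apart from sex.

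Rps2, at the mRNA entry of the small subunit (chromosome 17, 24718116 to 24721929, plus strand, GENCODE M21 on GRCm38), had 832, 769, 830 and 615 CPM in males, given for Vwf+ WT, Vwf+ Dnmt3a+/-, Vwf- WT and Vwf- Dnmt3a+/- cells. The female values in the same order were 1098, 916, 901 and 964 CPM. Every female library was above every male one, and the log2 change was 0.35 ± 0.11 (SE, 1.28-fold, adjusted p = 0.043). Rps25, a small-subunit protein used in viral internal initiation (chromosome 9, 44407139 to 44410427, plus strand), stood at 384, 396, 371 and 378 CPM in the male and 397, 278, 267 and 285 CPM in the female libraries. The 4 male values were close together and 3 female values lay well below them, while the female Vwf+ WT library matched the males. Its change was -0.34 ± 0.11 (SE, adjusted p = 0.049), and its annotated exons overlap Trappc4 by 462 bases on the opposite strand.

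Rps27, a zinc-finger protein of the small subunit (chromosome 3, 90212522 to 90213651, minus strand), held 152, 173, 179 and 335 counts in the male and 72, 121, 115 and 164 in the female libraries, which is 6.33 CPM or more in males and 5.24 CPM or less in females. Its log2 change was -0.85 ± 0.24 (SE, adjusted p = 0.027). Rpl34 (chromosome 3, 130726831 to 130730398, minus strand) held 63, 84, 93 and 155 counts in the male and 6, 48, 87 and 29 in the female libraries, a change of -1.57 ± 0.46 (SE, adjusted p = 0.034). Both sets were free of overlap in CPM. Both genes are far below the 72 abundant genes of the family. Other annotated genes share 63.1% of the 50-base stretches of Rps27 but 6.9% of those of Rpl34, against a family median of 40.2%. The levels and changes of both genes are uncertain, and why they are low was not tested.

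**Figure D3:**
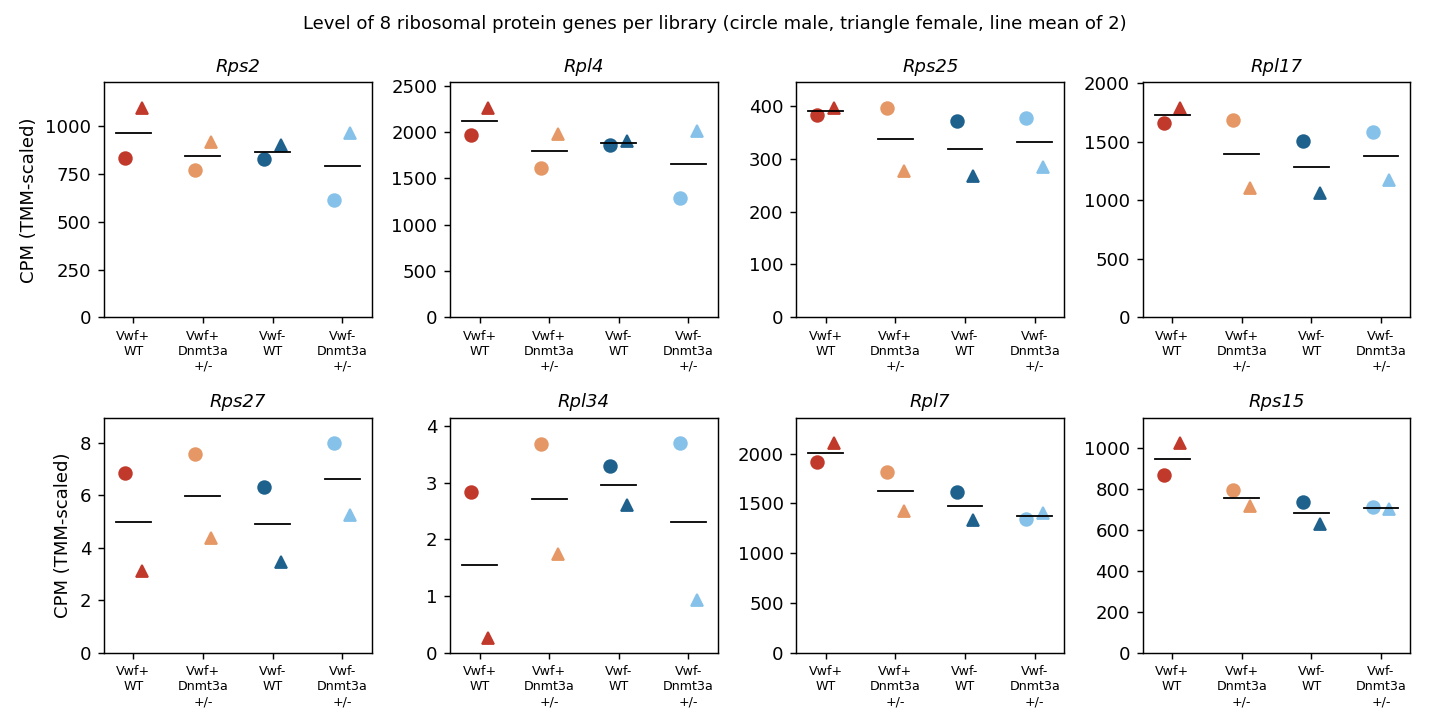
CPM of 8 ribosomal protein genes (1 panel each, vertical axis from 0) in the 4 groups (horizontal axis), with circles for male and triangles for female libraries and a line at the mean of 2. Rps2 is higher in the female library of each group, Rps27 and Rpl34 are lower in it, and Rps25 and Rpl17 are lower in the female library of 3 groups but not in Vwf+ WT.

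The genes next in order did not pass. Among the higher estimates, Rpl4, a long-tailed protein of the exit tunnel, had 0.29 ± 0.12 (SE, adjusted p = 0.12). Rpl28, Rpl8 and Rpl29 had 0.24, 0.22 and 0.20, with adjusted p of 0.15, 0.23 and 0.23. Among the lower ones, Rpl17, also at the exit tunnel, stood at 1662, 1690, 1506 and 1586 CPM in the male and 1794, 1109, 1061 and 1172 CPM in the female libraries, a change of -0.36 ± 0.12 (SE, adjusted p = 0.064). Rpl9 and Rps12 had -0.35 ± 0.12 and -0.33 ± 0.11 (SE), with adjusted p of 0.061 and 0.068. Rps2, Rpl4, Rpl28, Rpl8 and Rpl29 are also among the genes that correlated least with the rest of the family.

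The differences between genes were wider in this contrast than in the others. The SD over the 72 genes was 0.163 for the sex change, 0.048 for the Vwf change and 0.041 for the genotype change. The WT and the Dnmt3a+/- libraries, which are separate, gave a like order: across the 72 genes the female-minus-male changes had a Pearson r of 0.86 and a Spearman rho of 0.83, and 62 of 72 had the same sign. The Vwf change gave an r of -0.11 between the same 2 sets. Genes are not independent, so neither value carries a p. In WT libraries alone 0 of 79 genes passed, against 1.9% of all, and in Dnmt3a+/- libraries alone 10 passed, 2 higher and 8 lower, against 15.9% of all (8.26% higher and 7.6% lower). Rps2 changed by 0.26 in WT and 0.45 in Dnmt3a+/- libraries, Rps25 by -0.21 and -0.46, and Rpl17 by -0.20 and -0.52. The difference between genotypes in the sex change passed in 0 of 79 genes in edgeR, with 0 at an unadjusted p under 0.05, where 61 of all 15917 genes passed and 1378 were at an unadjusted p under 0.05.

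**Figure D4:**
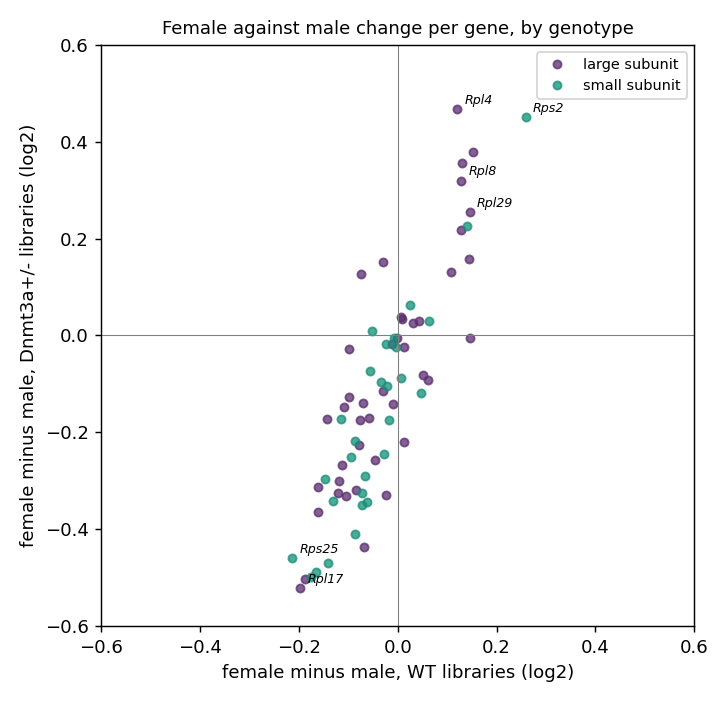
Female-minus-male log2 change of 72 ribosomal protein genes in the WT libraries (horizontal axis) and in the Dnmt3a+/- libraries (vertical axis), coloured by subunit. Rps2, Rpl4, Rpl8 and Rpl29 lie at the upper right and Rps25 and Rpl17 at the lower left (r = 0.86, a description with no test).

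The count of genes that passed between the sexes moved with single libraries. Each such fit leaves 1 library in a group, so its count is not given here. The median moved too: it was -0.03 without the male and -0.04 without the female Vwf- WT library. It was -0.05 without either Vwf+ Dnmt3a+/- library, and -0.16 and -0.17 without the male and the female Vwf+ WT library. Other measures moved with the same split. The nuclear transcript Malat1 took 0.974% to 1.97% of counts in male and 0.446% to 0.585% in female libraries. The ribosomal RNA precursor Rn45s was higher in the female than in the male library of each group, at 9.19% against 8.96% of counts in Vwf+ WT, 11.9% against 7.31% in Vwf+ Dnmt3a+/-, 8.24% against 8.07% in Vwf- WT and 9.83% against 6.08% in Vwf- Dnmt3a+/-. The LT-HSC markers Procr and Fgd5 were lower in females by log2 changes of -0.88 ± 0.11 and -0.49 ± 0.10 (SE, adjusted p under the threshold in edgeR). They were the only 2 of 14 LT-HSC markers that passed, against 10.5% of all genes. Of the 14 estimates 5 were positive, and the list median was -0.14. In other marker lists, 1 of 9 erythroid and 1 of 11 megakaryocyte and platelet markers were higher, and 2 of 12 endothelial markers were lower. Their part in the result was not tested. Across the 72 genes the sex change correlated weakly with transcript GC content (r = 0.17), with the share of 50-base stretches found elsewhere (r = 0.01) and with mean CPM (r = 0.26).

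Lists of other ribosome and translation genes had Vwf medians that were lower than the 0.20 of the ribosomal protein genes, and several were negative. Over all tested genes 5.44% passed in this Vwf average. The 7 cytosolic ribosomal protein genes outside the name rule had a median Vwf change of 0.18, all 7 positive, and 0 passed. The 25 other mRNAs known for a TOP start had 0.09, with 19 positive, and 1 passed, Vim, an intermediate filament gene, which fell in Vwf+ cells by 0.93 on the log2 scale (adjusted p = 0.014). The 41 initiation factors had a median of 0.00 and the 16 elongation and termination factors -0.01, and among the latter Eef2k, the kinase that inhibits elongation factor 2, was lower in Vwf+ cells (-0.56 ± 0.11, SE, adjusted p = 0.014). Biogenesis factors had -0.09, with 18 of 100 positive, RNA polymerase I and its factors -0.11, and chaperones and import factors -0.11, with 1 of 15 positive, and in these 3 lists 0 genes passed. Mitochondrial ribosomal proteins had 0.01 over 77 genes, also with 0 past the threshold. In the Myc network, Myc, a known driver of ribosome production, was lower in Vwf+ cells (-0.88 ± 0.16, SE, adjusted p = 0.009) and Mycn was higher (1.13 ± 0.11, SE). In the mTORC1 list 1 of 42 passed, Sesn1, a stress-induced inhibitor of mTORC1 signalling, which was higher (0.65 ± 0.10, SE, adjusted p = 0.005). Among snoRNA hosts Snhg4 was lower (-0.70 ± 0.17, SE, adjusted p = 0.044).

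Between the sexes, 18 of 100 biogenesis factors were higher in females and 0 lower, with a median of 0.14, where over all tested genes 5.62% were higher and 4.92% lower. Chosen after their values were seen, Ncl, nucleolin, had 0.59 ± 0.12, Ddx21, a nucleolar helicase, 0.51 ± 0.11 and Fbl, the methyltransferase fibrillarin, 0.45 ± 0.10 (SE). Of 41 initiation factors 9 were higher and 1 lower, with a median of 0.13, and 4 of 15 chaperones and import factors were higher (Nap1l1, Ipo5, Ipo7 and Kpnb1), with a median of 0.19. The snoRNA hosts had the opposite sign, with a median of -0.49 over 19 genes and 4 lower: Gas5, Snhg12, Snhg17 and Eif4a2. Genotype gave 0 calls over all 15917 tested genes, and so 0 in every list. Its medians were -0.12 for biogenesis factors and -0.11 for nuclear-encoded oxidative phosphorylation genes, close to the -0.12 of the ribosomal protein genes.

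**Figure D5:**
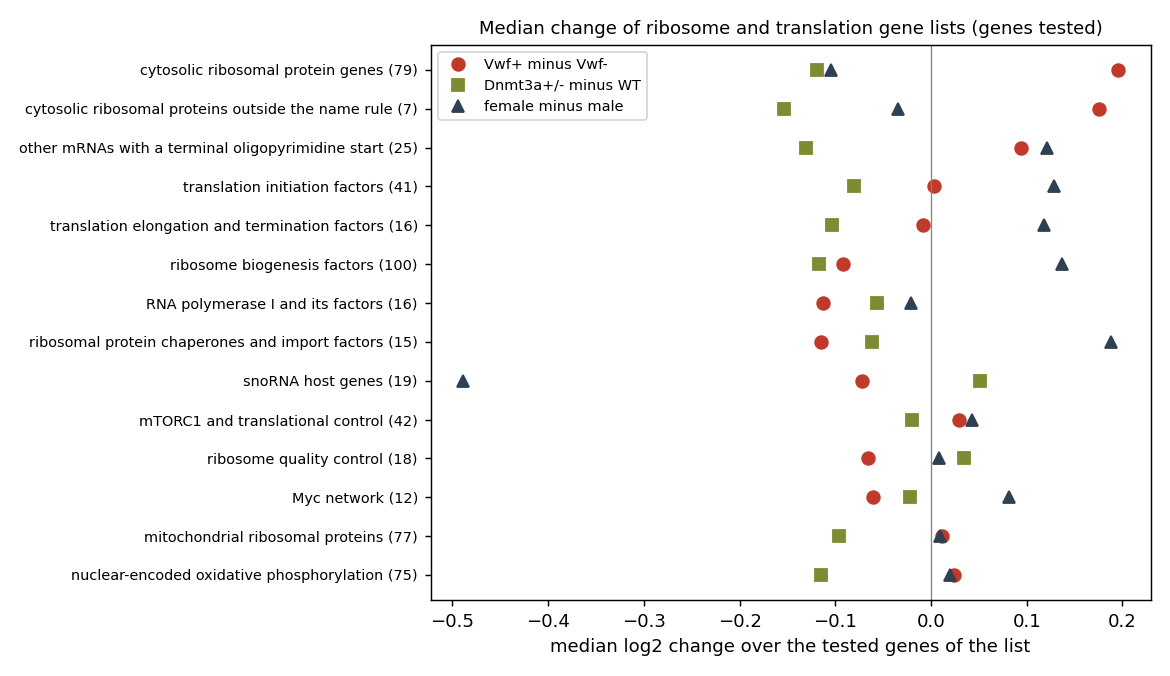
Median log2 change (horizontal axis) of the 79 ribosomal protein genes and of 13 other gene lists (vertical axis, genes tested in brackets) for Vwf+ minus Vwf- (circles), Dnmt3a+/- minus WT (squares) and female minus male (triangles). The ribosomal protein genes have the highest Vwf median of the lists shown, 0.20, and the snoRNA hosts have the lowest sex median, -0.49.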

How the data were processed

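The authors deposited a table of raw read counts per gene symbol and a table of TPM values for the same 8 libraries. The build mm10 and the tools Trim Galore, STAR, featureCounts and DESeq2 are listed without versions, per the submitters' processing notes. The annotation, strand setting and treatment of multi-mapping reads or molecular identifiers are not given in the sources used here. RNA was isolated with a Qiagen micro kit and libraries were made with a Takara low-input total RNA kit, per the labels' protocols.

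Counts were tested in R 4.3.3 with edgeR 4.0.16: filterByExpr with a minimum count of 10, TMM factors (0.958 to 1.06), a quasi-likelihood F-test on 4 group means (4 residual degrees of freedom, common dispersion 0.0732) and Benjamini-Hochberg adjustment over 15917 genes, threshold 0.05. The sex contrast added replicate number (3 residual degrees of freedom). An SE was calculated back from the log2 change and its F statistic. Alternatives used DESeq2 1.42.0, limma 3.58.1 on log2(TPM + a pseudocount of 1 or 0.1), RLE or total-count scaling, no filter, a replicate block, each library left out, and GC offsets, which were added after seeing the data. The scripts were tested on simulated counts.

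The replicate numbers pair libraries, since the labels give 1 sex to each number. Differences between replicates 1 and 2 correlated with r of 0.13 to 0.30 across 15917 genes for the 6 pairs of groups. Across the 72 ribosomal protein genes with a mean of at least 50 CPM, r was 0.37 to 0.90. Replicates differed by more than counting noise in each group. P-values measure the spread between pools, not between mice. Vwf+ and Vwf- libraries may come from the same mice, which the fits do not model.

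The gene set, the gene lists and the comparisons were chosen with earlier results of these data known. Named genes were, by smallest p, 6 in each direction for the Vwf average and for sex and 3 in the other contrasts, with the 5 highest and 5 lowest by TPM, paralogues, the 3 most and 3 least variable, all that passed, and 2 in each direction of each other list. Rps19, Rpl5, Rps14 and the stalk genes were added for their known roles, and values of a few genes that the rule names are not reported here. Coordinates are from GENCODE M21 and promoter windows from RefSeq on GRCm38.p6.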

Additional observations from a re-analysis of the deposited data

How the results depend on the processing

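The number of ribosomal protein genes past the threshold stayed at 0 in every alternative for both within-fraction genotype contrasts, the genotype average, the interaction and the Vwf contrast within Dnmt3a+/- cells. With a replicate block and a GC offset together, 1 gene (Rpl7) passed in the Vwf average and 2 in WT cells. With the replicate block alone 0 of 79 passed in the Vwf average and 1 in WT cells, against 13.4% and 8.35% of all genes. For the block and the GC offset together the share of all genes is not given here. The block changed no other count of these genes past the threshold. At an unadjusted p under 0.05 it moved the Vwf average from 2 to 19 genes and WT Vwf from 6 to 46. Genotype in Vwf+ cells moved from 1 to 11, the genotype average from 0 to 1 and the interaction from 1 to 3. How far the block moved the share of all genes at that cut is not given here, so these counts do not set the family apart. For female against male, 4 in the main analysis (10.5% of all genes) became 13 of 76 with DESeq2 (15.1% of all). Within WT libraries the count was 0 and within Dnmt3a+/- libraries 10, against 1.9% and 15.9% of all genes. It was 9 with total-count scaling, 9 with no filter, 1 with limma at either pseudocount and 7 with a GC offset. For these other settings the share of all genes is not given here, so their counts do not set the family apart. Leaving out single libraries gave 1 to 30, and moved the medians of WT Vwf between 0.19 and 0.48, of the genotype average between -0.19 and -0.05, of genotype in Vwf+ cells between -0.35 and -0.14, of the interaction between -0.40 and -0.13 and of sex between -0.17 and -0.03. The cause was not tested. The median of the interaction moved from -0.26 to -0.11 and -0.10 with limma at a pseudocount of 1 and 0.1. At the pseudocount of 1 the median of all genes was itself 0.15, against 0.00 in edgeR. Of the medians over the 79 genes, 6 of 8 kept their sign in all 18 alternatives. In Vwf- cells the genotype median kept it in 14 of 18, with -0.12 without the female WT library. In Dnmt3a+/- cells the Vwf median kept it in 17 of 18. The Vwf average ran from 0.13 to 0.26. With 2 pools a group, changes near the family's median SE were not resolvable for single genes. That SE was 0.145 in the Vwf average, 0.205 in WT Vwf and 0.289 in the interaction, all without the block. It was 0.112 for sex.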
